A study of Homo sapiens with 8 samples.

Results

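The ABC drug efflux transporters are 7 genes, ABCB1, ABCC1, ABCC2, ABCC3, ABCC4, ABCC5 and ABCG2, taken by symbol from the 20263 genes of the expression table, and all 7 were found there. They were read in MHCC-97H cells, a line from a human liver cancer (hepatocellular carcinoma) whose cells are labelled epithelioid, after 24 hours with lenvatinib or with its solvent DMSO. Lenvatinib, a kinase inhibitor of the VEGF and FGF receptors, was given at 40, 60, 80 or 100 µM, with 1 library per dose, and DMSO has 4 libraries. No genetic change separates the groups. The doses are not replicates of one another, and no label says that the DMSO libraries are separate cultures. Every p-value therefore measures the spread among these libraries alone, and that spread may be technical. In bulk RNA, fewer cells that express a gene and less of its RNA per cell cannot be told apart.

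ABC transporters are membrane pumps that use the hydrolysis of ATP to move substrates out of the cell. ABCB1 (P-glycoprotein) and ABCG2 (breast cancer resistance protein) export a wide range of hydrophobic drugs, kinase inhibitors among them, and lenvatinib is itself known as a substrate of both. The ABCC genes listed here encode multidrug resistance-associated proteins, which mainly carry organic anions and drugs joined to glutathione, glucuronate or sulfate. In hepatocytes ABCC2 sits in the canalicular membrane and pumps conjugates into bile, whereas ABCC3 sits in the basolateral membrane and returns them to blood.

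Libraries held between 10181973 counts (60 µM) and 37384578 counts (80 µM), and genes with at least 1 read numbered 11076 at 60 µM and 13290 to 14340 in the other 7 libraries. They differed from one another along the GC content of genes. The GC slope of a library, the log2 deviation from the mean library per 10 percentage points of transcript GC content, was 0.60, 1.41, -0.48 and -0.50 at 40, 60, 80 and 100 µM, against 0.29, -0.41, -0.87 and -0.04 in DMSO 1 to 4. Of the markers checked, the epithelial keratins KRT8 and KRT18 were abundant (1332 to 7582 CPM, counts scaled to library size, with lenvatinib and 1825 to 8604 CPM in DMSO), while EPCAM and CDH1 stood below 2 CPM in every library. The hepatocyte genes ALB, AFP, APOA1, APOA2 and TF had reads at 60 µM only, 2 to 10 each, and TTR had 0 reads. Also on that list, CPS1 stood at 53.1 to 892 CPM with lenvatinib and 412 to 991 CPM in DMSO. HNF4A, FGB and SERPINA1 stood below 10 CPM in every library. The blood cell genes PTPRC and CD3E had 0 reads. CD68 stood at 2.47 to 10.6 CPM with lenvatinib and 5.21 to 12.65 CPM in DMSO, and HBB reached 4.19 CPM at 60 µM. Of the fibroblast genes, COL1A1 stood at 31.6 to 42.5 CPM with lenvatinib and 23.9 to 28.9 CPM in DMSO. DCN stood at 3.22 to 15.25 CPM with lenvatinib and 10.0 to 21.3 CPM in DMSO, LUM reached 1.20 CPM, and COL1A2 had 0 reads. Of the endothelial genes, VWF reached 3.89 CPM at 40 µM, CDH5 and PECAM1 reached 0.240 and 0.119 CPM, and KDR had 0 reads. CPM values of the markers, the transporters and the other named genes are scaled by TMM, which is meant to correct for differences in RNA composition between libraries. The TMM factors ran from 0.61 at 60 µM, with the highest GC slope, to 1.325 in DMSO 3, with the lowest. Orders of libraries in CPM can therefore differ from those in deposited TPM.

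ABCC3 was the one transporter with all 4 lenvatinib libraries above all 4 DMSO libraries, a pattern found for 3.08% of the 11827 genes tested. In TMM-scaled CPM, ABCC2 and ABCC5 exceeded every DMSO library at 80 and 100 µM but lay far below them at 60 µM. In deposited TPM, ABCC2 at 100 µM did not exceed DMSO 3. ABCC1 and ABCC4 were below the DMSO range at 40 and 60 µM and inside it at 80 and 100 µM. No transporter had all 4 lenvatinib libraries below DMSO, as 3.38% of genes did. ABCB1 and ABCG2 were barely expressed.

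**Figure D1:**
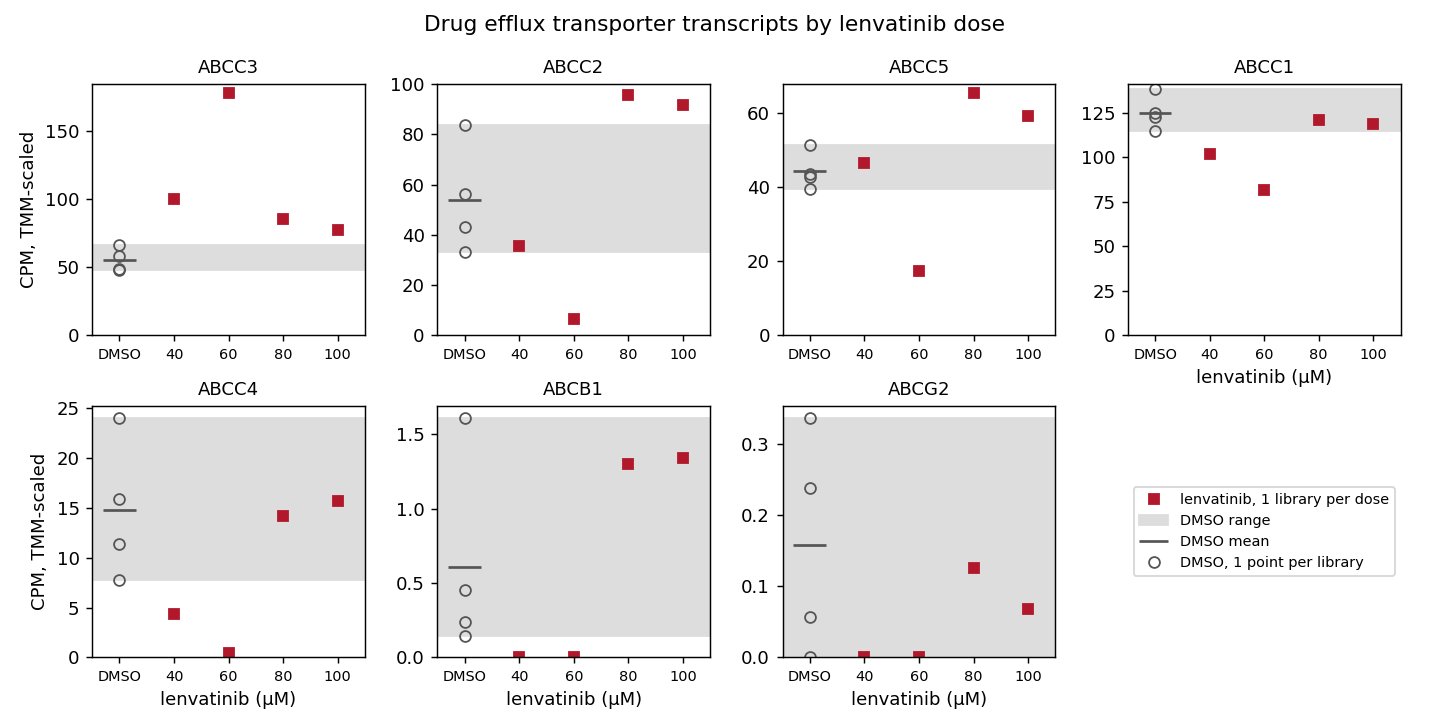
TMM-scaled CPM (y axis, linear from 0, its own scale in each panel) of the 7 transporters in the DMSO libraries (open circles, with their mean as a bar and their range as a grey band) and in the single library at each lenvatinib dose (squares). ABCC3 lies above the band at every dose, with its highest value of 178 CPM at 60 µM, while ABCC2 and ABCC5 lie above it at 80 and 100 µM only.

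Per unit of transcript length the transporters fell into an expressed set and a near-silent pair. In lenvatinib libraries the deposited TPM (a level that allows for gene length) ranked ABCC3 first, at 37.3 ± 7.87, then ABCC1 at 28.9 ± 15.7, ABCC2 at 22.7 ± 20.8, ABCC5 at 20.1 ± 12.3 and ABCC4 at 3.30 ± 3.19 (SD over 4 libraries at 4 doses). In DMSO libraries ABCC1 came first, at 37.1 ± 12.97 TPM, followed by ABCC3 at 22.2 ± 2.54, ABCC2 at 21.4 ± 14.1, ABCC5 at 19.8 ± 6.48 and ABCC4 at 5.46 ± 3.94 (SD, n = 4). ABCB1 averaged 0.311 TPM with lenvatinib and 0.292 TPM in DMSO, and ABCG2 averaged 0.0219 TPM with lenvatinib and 0.0748 TPM in DMSO. Among neighbours in these orders the ranges over libraries overlapped, with 2 exceptions. In DMSO the range of ABCC5 lay above that of ABCC4, and the range of ABCC4 above that of ABCB1. Compared within each library, ABCC1 exceeded ABCC2, ABCC5 exceeded ABCC4 and ABCC4 exceeded ABCB1 in 4 of 4 lenvatinib libraries. ABCC1 exceeded ABCC3 in 4 of 4 DMSO libraries, and ABCC3 exceeded ABCC1 in 3 of 4 lenvatinib libraries, the exception being 80 µM.

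The summed level of the set and the level of ABCC1 overlapped between arms, while the share of ABCC1 in the sum did not. Summed over the 7 genes, the level was 68.6, 57.3, 164 and 160.1 TPM at 40, 60, 80 and 100 µM, against 71.9, 108, 161 and 84.6 TPM in DMSO 1 to 4, so the arms overlapped. ABCC1 made up 27.9, 21.0, 26.2 and 25.8% of that sum at the 4 doses, against 33.5, 35.6, 33.9 and 37.2% in DMSO, with every lenvatinib library below every DMSO library. A share also depends on the levels of the other transporters, and how often such a separation arises in other gene sets was not computed. The share of ABCC3 was 37.9, 66.5, 25.1 and 27.3% with lenvatinib, against 32.6, 18.7, 15.7 and 23.7% in DMSO. The ABCC3 shares overlapped, since DMSO 1 stood above the 80 and 100 µM libraries.

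**Figure D2:**
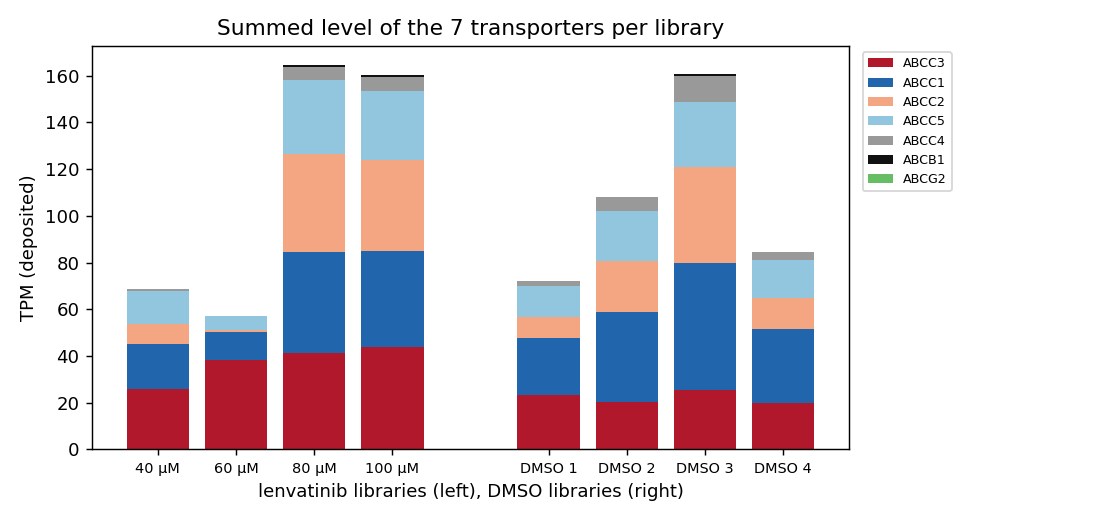
Deposited TPM of the 7 transporters stacked per library, with the 4 lenvatinib libraries on the left and the 4 DMSO libraries on the right. The total runs from 57.3 TPM at 60 µM, where ABCC3 makes up 66.5% of it, to 164 TPM at 80 µM, and DMSO 3 alone among the DMSO libraries reaches a like total (161 TPM).

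Of the 7 transporters, 5 passed the filter of a mean of at least 1 CPM. The edgeR comparison of the 4 lenvatinib with the 4 DMSO libraries called 0 of these 5 at an adjusted p under 0.05, against 0% of all genes. Of the 5, 1 had an unadjusted p under 0.05, as did 523 of all genes, and limma-voom called 0 transporters, as did DESeq2, which called 94 genes. With the GC slope of each library as a covariate, edgeR called 1 of the 5, ABCC3, as higher, against 4.02% of all genes (1.65% higher and 2.37% lower). The median log2 fold change of the 5 was 0.09 without and 0.32 with the covariate, beside -0.11 and -0.07 over all genes tested. In both fits 3 of the 5 had a positive log2 fold change, as did 43.9% of all genes without the covariate and 42.1% with it. The transporters were listed with earlier results of these data known, so these counts are a description of the set.

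**Figure D3:**
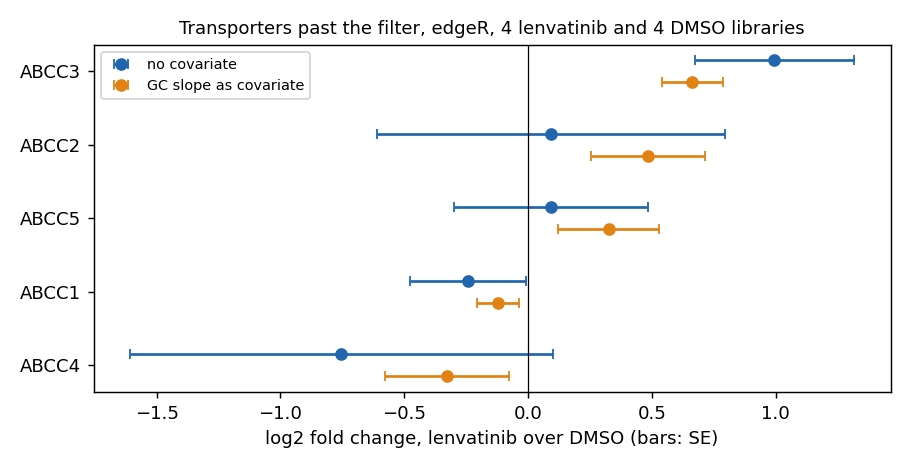
Log2 fold change of lenvatinib over DMSO (x axis) with its standard error (bars) for the 5 transporters past the filter, in edgeR fits without a covariate and with the GC slope as covariate. The ABCC3 estimate lies above 0 in both fits (0.99 and 0.66), and the standard errors of all 5 genes are smaller with the covariate.

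ABCC3 (ENSG00000108846, GRCh38 chromosome 17, 50634777 to 50692252, plus strand), the basolateral exporter of glucuronides and bile acids also called MRP3, was measured at 99.9, 178, 84.9 and 77.5 CPM at 40, 60, 80 and 100 µM, against 66.3, 48.7, 47.8 and 58.0 CPM in DMSO 1 to 4. All 4 lenvatinib libraries thus lay above the highest DMSO library. The means were 110.1 ± 46.2 CPM with lenvatinib and 55.2 ± 8.72 CPM in DMSO (SD, n = 4 each). The log2 fold change was 0.99 ± 0.32 without the covariate (SE; edgeR's quasi-likelihood test, adjusted p = 0.874) and 0.66 ± 0.12 with it (adjusted p = 0.0310). Offsets fitted as smooth curves of GC content and length, in place of the covariate, gave 0.87 ± 0.21, not called (edgeR adjusted p = 0.164). The call with the covariate ended without DMSO 1, DMSO 2, DMSO 4, 80 µM or 100 µM (adjusted p = 0.127, 0.0990, 0.135, 0.217 and 0.166), at log2 fold changes between 0.61 and 0.69. The deposited TPM showed the same separation, at 26.0, 38.1, 41.4 and 43.7 TPM with lenvatinib, against 23.4, 20.3, 25.3 and 20.03 TPM in DMSO.

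ABCC2 and ABCC4 are shown with the 250 bases before their RefSeq start of transcription, because these were the transporters whose levels fell most per unit of GC slope, while the GC content of these stretches differs widely. Of the 7 transporters 5 matched the RefSeq promoter table by symbol, and ABCC1 and ABCC3 did not. The sequences (GRCh38.p14) read 5′ to 3′ on the strand of the gene, with chr10:99782390-99782639 for ABCC2 (plus strand) and chr13:95301452-95301701 for ABCC4 (minus strand). Capitals mark matches on either strand to the core of the antioxidant response element (TGACNNNGC, bound by NRF2 with small MAF proteins) and of the xenobiotic response element (GCGTG, bound by the aryl hydrocarbon receptor with ARNT).
ABCC2: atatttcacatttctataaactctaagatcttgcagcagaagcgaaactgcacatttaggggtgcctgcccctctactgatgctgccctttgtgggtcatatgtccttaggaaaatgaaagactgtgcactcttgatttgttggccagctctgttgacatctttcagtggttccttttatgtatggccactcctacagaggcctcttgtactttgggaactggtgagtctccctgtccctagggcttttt
ABCC4: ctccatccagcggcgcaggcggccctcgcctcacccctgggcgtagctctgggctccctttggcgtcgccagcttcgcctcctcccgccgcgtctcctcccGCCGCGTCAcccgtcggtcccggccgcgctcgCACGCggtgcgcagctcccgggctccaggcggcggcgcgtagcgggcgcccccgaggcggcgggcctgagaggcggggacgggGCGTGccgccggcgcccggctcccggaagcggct
The GC content of these stretches was 45.6% for ABCC2 and 80.4% for ABCC4, above that of 23.2% and 97.1% of the RefSeq windows. ABCC4 held 1 match to the antioxidant core and 2 to the xenobiotic core, and these letters are not in the ABCC2 window. Of 35116 RefSeq promoter windows of this length, 10.9% held the first and 32.2% the second core, without matching for GC content. The xenobiotic core was also found in windows of ABCB1 and ABCG2, and not in that of ABCC5.

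ABCC2 (ENSG00000023839, chromosome 10, 99782732 to 99852192, plus strand), the canalicular pump for bilirubin glucuronides and other conjugates also called MRP2, was measured at 35.4, 6.60, 95.7 and 91.8 CPM at 40, 60, 80 and 100 µM. The DMSO libraries held 33.1, 56.1, 83.7 and 43.0 CPM. In these values the 80 and 100 µM libraries were the highest of the 8, and the 60 µM library, with 41 reads, was the lowest. In deposited TPM the 100 µM library was not above every DMSO library. ABCC2 stood at 41.98 TPM (80 µM) and 39.1 TPM (100 µM), against 41.05 TPM in DMSO 3. The means, 57.4 ± 43.7 CPM with lenvatinib and 54.0 ± 21.9 CPM in DMSO (SD, n = 4 each), did not separate (log2 fold change 0.09 ± 0.70, edgeR adjusted p = 0.962). With the covariate the log2 fold change was 0.48 ± 0.23 (adjusted p = 0.276). It was 0.59 ± 0.07 (adjusted p = 0.00145) when the 60 µM library was left out.

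ABCC5 (ENSG00000114770, chromosome 3, 183919934 to 184018015, minus strand), an exporter of cyclic nucleotides and nucleotide analogues also called MRP5, followed a like order. It was measured at 46.7, 17.4, 65.6 and 59.2 CPM at 40, 60, 80 and 100 µM, against 39.7, 42.9, 51.4 and 43.6 CPM in DMSO 1 to 4. The 80 and 100 µM libraries were above every DMSO library, 40 µM was inside their range and 60 µM below it. The log2 fold change was 0.09 ± 0.39 without the covariate (edgeR adjusted p = 0.932) and 0.32 ± 0.20 with it (adjusted p = 0.409), and 0.42 ± 0.08 (adjusted p = 0.00831) with the covariate and without 60 µM. The antisense gene ABCC5-AS1 lies within ABCC5 on the opposite strand, and whether the counting used strand is not given in the sources used here.

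In that fit without the 60 µM library 3 of the 5 transporters were called, ABCC2, ABCC3 and ABCC5, all higher, against 23.3% of all genes. With only the 80 and 100 µM libraries, whose GC slopes lie inside the DMSO range, the covariate fit called the same 3 transporters, against 20.9% of all genes. There the log2 fold change was 0.65 for ABCC2 (adjusted p = 0.00218), 0.70 for ABCC3 (adjusted p = 0.00301) and 0.46 for ABCC5 (adjusted p = 0.0131). It was -0.08 for ABCC1 and -0.15 for ABCC4, which were not called. Without the covariate the same libraries gave 0 called transporters and 0 called genes, with log2 fold changes of 0.83 for ABCC2, 0.59 for ABCC3 and 0.52 for ABCC5 (edgeR adjusted p = 0.668, 0.585 and 0.590). In TMM-scaled CPM the 80 and 100 µM libraries both lay above all DMSO libraries for 9.90% of the genes tested. They did so for 3 of these 5, ABCC2, ABCC3 and ABCC5.

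ABCC1 (ENSG00000103222, chromosome 16, 15949577 to 16143074, plus strand), also called MRP1, which exports glutathione conjugates such as leukotriene C4, had the smallest ratio of highest to lowest library among the 5. It was measured at 102, 81.9, 121 and 119 CPM at the 4 doses, against 115, 123, 139 and 125 CPM in DMSO. The 80 and 100 µM libraries fell inside the DMSO range and the 40 and 60 µM libraries below it. The log2 fold change was -0.24 ± 0.23 without the covariate (edgeR adjusted p = 0.874) and -0.12 ± 0.08 with it (adjusted p = 0.455).

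ABCC4 (ENSG00000125257, chromosome 13, 95019829 to 95301446, minus strand), also called MRP4, an exporter of cyclic nucleotides and prostaglandins, had the largest such ratio. It was measured at 4.36, 0.483, 14.2 and 15.6 CPM with lenvatinib, against 7.72, 15.9, 24.0 and 11.3 CPM in DMSO. The 60 µM value rests on 3 reads and is 0.0328 of the DMSO mean, with an exact Poisson 95% interval of 0.00676 to 0.0958 that covers counting error of that library only. At 80 and 100 µM the gene was within the DMSO range. The log2 fold change was -0.75 ± 0.85 without the covariate (edgeR adjusted p = 0.874) and -0.33 ± 0.25 with it (adjusted p = 0.504).

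ABCB1 (ENSG00000085563, chromosome 7, 87503633 to 87713323, minus strand) and ABCG2 (ENSG00000118777, chromosome 4, 88090264 to 88231322, minus strand) were under the filter and were not tested. ABCB1 had 0, 0, 62 and 59 reads at 40, 60, 80 and 100 µM, against 4, 16, 67 and 8 reads in DMSO 1 to 4. In CPM these were 1.30 at 80 µM and 1.34 at 100 µM, against 0.145, 0.450, 1.61 and 0.238 in DMSO, so the 2 highest doses were above DMSO 1, 2 and 4 and below DMSO 3. A count of 0 allows up to 3 reads, which is 0.128 CPM at 40 µM and 0.483 CPM at 60 µM. The limit at 60 µM is above the level of 3 DMSO libraries, so a lower level was not detectable there at this depth. ABCG2 had 0, 0, 6 and 3 reads with lenvatinib and 0, 2, 14 and 8 reads in DMSO, 33 in all. RUNDC3B, a protein-coding gene, overlaps ABCB1 on the opposite strand.

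The levels of ABCC2, ABCC3, ABCC4 and ABCC5 moved with the GC slope of the library, and that of ABCC1 did so about as the median gene did. In the covariate fit, the change in log2 level per unit of GC slope was 0.52 for ABCC3, -0.26 for ABCC1, -0.70 for ABCC5, -1.62 for ABCC2 and -1.84 for ABCC4, with a median of -0.24 over all genes tested. The GC content of the longest GENCODE v29 transcript was 55.8% for ABCC3, 54.9% for ABCC1, 50.8% for ABCC5, 44.9% for ABCC2 and 43.2% for ABCC4, the same order of the 5 genes. The 4 DMSO libraries alone showed it in TMM-scaled CPM. In DMSO 3, with the lowest slope, ABCC2 and ABCC4 were at their DMSO maximum and ABCC3 at its minimum. In DMSO 1, with the highest slope, the reverse held. Deposited TPM gave the same for ABCC2 and ABCC4 but not for ABCC3, which was highest in DMSO 3. There ABCC3 stood at 25.3 TPM, against 23.4, 20.3 and 20.03 TPM in DMSO 1, 2 and 4. What the GC slope stands for in these cells was not tested.

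The 80 and 100 µM libraries (GC slopes -0.48 and -0.50) can be set beside DMSO 2 (-0.41), the DMSO library nearest to them, a choice made after the values were seen. ABCC3 stood at 84.9 CPM (80 µM) and 77.5 CPM (100 µM), against 48.7 CPM in DMSO 2. ABCC2 stood at 95.7 and 91.8 CPM, against 56.1 CPM, and ABCC5 at 65.6 and 59.2 CPM, against 42.9 CPM in DMSO 2. ABCC1 (121 and 119 CPM, against 123 CPM in DMSO 2) and ABCC4 (14.2 and 15.6 CPM, against 15.9 CPM in DMSO 2) lay close to it.

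**Figure D4:**
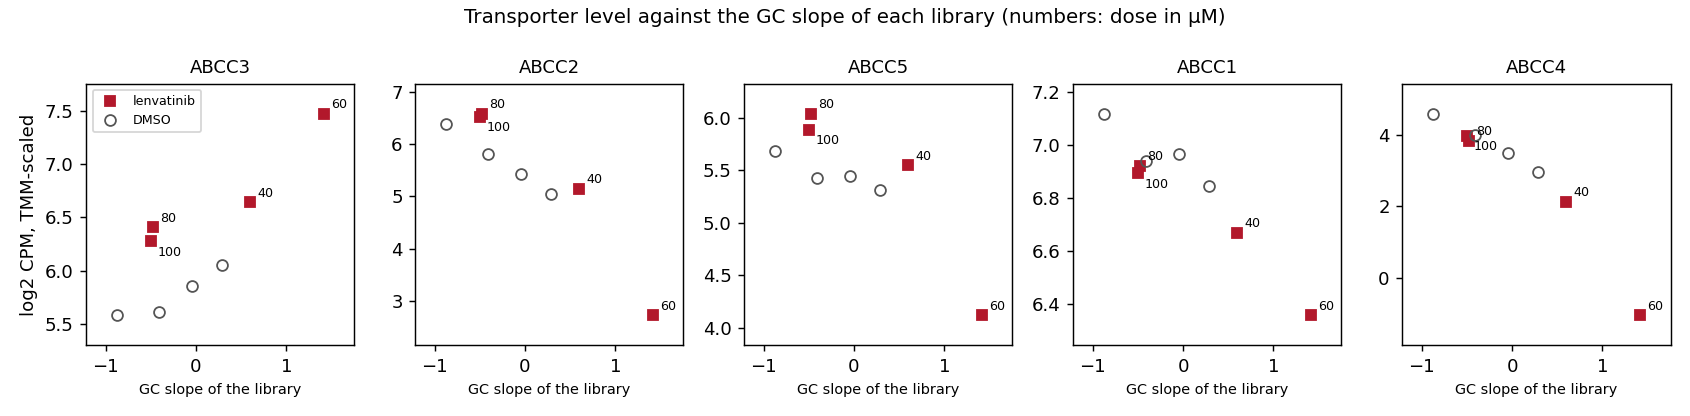
Log2 TMM-scaled CPM of the 5 transporters past the filter (y axis, its own scale in each panel) against the GC slope of each library (x axis, log2 per 10 percentage points of GC), with lenvatinib libraries as squares labelled by dose in µM and DMSO libraries as open circles. ABCC3 lies higher in libraries with a higher slope and the other 4 lower. At 80 and 100 µM, ABCC3, ABCC2 and ABCC5 stand above the DMSO libraries of nearby slope, and ABCC1 and ABCC4 do not.

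Each dose was also set against DMSO on its own, with the spread of the DMSO libraries standing in for that of the single library, so the p-values hold no spread at the dose itself and compare these libraries, not the conditions. In these comparisons edgeR called transporters at 60 µM only. There 4 of 5 were called, against 37.2% of all genes: in the 60 µM library ABCC3 was higher (log2 fold change 1.69 ± 0.29, adjusted p = 0.0267), and ABCC2 (-3.03 ± 0.69, adjusted p = 0.0313), ABCC4 (-4.92 ± 1.06, adjusted p = 0.0301) and ABCC5 (-1.35 ± 0.33, adjusted p = 0.0336) were lower. ABCC1 was not called (-0.61 ± 0.30, adjusted p = 0.139). The 60 µM library, the shallowest and the one with the highest GC slope, was below all 4 DMSO libraries for 52.7% of all genes and for 4 of these 5. These calls ended without DMSO 2 or DMSO 4, where 0 transporters and 0 genes were called. At 40, 80 and 100 µM edgeR called 0 of 5 transporters, against 0% of all genes, with 1, 0 and 0 of them at an unadjusted p under 0.05 (1019, 336 and 261 of all genes).

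The dose slope, in log2 units for each step of 20 µM from 40 to 100 µM, called 0 of 5 transporters, against 0% of all genes. None of the 5 had an unadjusted p under 0.05, against 875 of all genes. The slope was 0.81 ± 0.46 for ABCC4, 0.65 ± 0.39 for ABCC2, 0.24 ± 0.23 for ABCC5, 0.12 ± 0.14 for ABCC1 and -0.25 ± 0.21 for ABCC3, with edgeR adjusted p-values between 0.295 and 0.534. In TMM-scaled CPM the levels did not follow a straight line with dose, since for all 5 the extreme value came at 60 µM. For ABCC3 this depended on the scaling, since its deposited TPM rose from dose to dose (26.0, 38.1, 41.4 and 43.7 TPM).

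Each transporter had near neighbours in its pattern over the 8 libraries. Genes outside the lists with the highest Pearson correlation of log2 CPM were NPTXR and KCNIP3 with ABCC3 (0.993 and 0.991), TXNDC15 and PXDN with ABCC2 (0.999 and 0.998) and ZNF589 and SLC20A1 with ABCC5 (0.997 and 0.995). They were CENPH and TRIO with ABCC1 (0.999 and 0.995) and INTS8 with ABCC4 (0.999). All 8 libraries share the GC axis, and correlations over 0.95 were found for 193 genes with ABCC3, 286 with ABCC5, 1331 with ABCC1, 1434 with ABCC2 and 2493 with ABCC4. Among the transporters, ABCC1 and ABCC4 had a correlation of 0.977, ABCC2 and ABCC5 of 0.969, ABCC2 and ABCC4 of 0.952, and ABCC3 and ABCC1 of -0.934, as a description over the same 8 libraries.

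Genes that work with these pumps were read in the same fits. Without the covariate no list had a called gene, and the calls given here are from the covariate fit. They depend on single libraries, since that fit called 0 of all genes without 80 µM and 4 without 100 µM, and 45, 64, 248 and 29 without DMSO 1, 2, 3 and 4, against 475 with all libraries. The counts of each list stand beside 1.65% of all genes called higher and 2.37% called lower in that fit. All 4 lenvatinib libraries were above DMSO for 3.08% of all genes and below DMSO for 3.38%. They were above for 3 of 17 other ABC transporters, 1 of 8 uptake transporters, 1 of 19 conjugation enzymes and 1 of 18 transcription regulators. They were below for 4 of those 18 regulators and 2 of 8 scaffold and trafficking partners. Of 28 other ABC transporters 17 were tested, 1 rose and 0 fell (median log2 fold change 0.17, and 0.71 without the covariate). The 1 was ABCA2, a lipid transporter of late endosomes and lysosomes, at 761 ± 481 CPM with lenvatinib and 323 ± 67.5 CPM in DMSO (SD, n = 4 each; 0.68 ± 0.14, edgeR adjusted p = 0.0365). ABCA5 had a larger estimate on few reads, at 0.0855, 0, 2.74 and 3.33 CPM with lenvatinib, against 0.0725, 1.46, 5.36 and 0.476 CPM in DMSO, and was not called (0.82 ± 0.30, adjusted p = 0.169). ABCC6, a further ABCC gene with pseudogene copies among which reads may be split, was above DMSO in all 4 libraries but was not called (0.54 ± 0.23, adjusted p = 0.229). ABCA7 and ABCB6 were not called either (log2 fold change 0.45 and 0.36 in the covariate fit, beside 1.27 and 0.94 in the other).

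Of 27 conjugation enzymes, which make the substrates of the ABCC pumps, 19 were tested, 2 rose and 0 fell. The median log2 fold change was 0.00, with 9 of 19 positive, and without the covariate 0.47, with 17 of 19 positive. These were GCLM, a subunit of the enzyme for the first step of glutathione synthesis (0.92 ± 0.11, adjusted p = 0.00931; 31.4, 14.8, 89.7 and 77.7 CPM with lenvatinib, against 21.7, 41.1, 55.9 and 31.3 CPM in DMSO), and the glutathione transferase GSTA4 (1.33 ± 0.22, adjusted p = 0.0226). GSTA4 stood at 3.85, 3.70, 7.19 and 6.75 CPM with lenvatinib, against 1.78, 2.22, 3.87 and 2.53 CPM in DMSO. For both genes the arms overlapped and the 80 and 100 µM libraries were above every DMSO library. GCLC, the catalytic subunit that pairs with GCLM, stood at 12.6, 4.19, 52.0 and 34.8 CPM with lenvatinib, against 11.9, 24.3, 35.4 and 16.4 CPM in DMSO (0.68 ± 0.18), and was not called (edgeR adjusted p = 0.0781). The microsomal glutathione transferase MGST3 was above DMSO in all 4 lenvatinib libraries (0.44 ± 0.21) and was not called, nor was the acetyltransferase NAT1 (-0.52 ± 0.28).

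Of 23 factors known to act on efflux transporter transcription, 18 were tested, and 1 rose and 1 fell (median -0.04, and -0.36 without the covariate). MAFG, the small MAF partner of NRF2, rose (1.94 ± 0.39, adjusted p = 0.0356), and the hepatocyte nuclear receptor HNF4A fell (-2.43 ± 0.40, adjusted p = 0.0222). MAFG stood at 87.6, 126, 125 and 117 CPM with lenvatinib, against 22.9, 57.6, 20.6 and 20.8 CPM in DMSO. HNF4A stood at 3.42, 1.29, 1.00 and 1.40 CPM with lenvatinib, against 8.73, 9.83, 6.87 and 8.24 CPM in DMSO. The arms did not overlap for either gene. PPARA, a nuclear receptor of fatty acid metabolism, was not called (-0.96 ± 0.69). Of 19 uptake and organic ion transporters 8 were tested, 0 rose and 1 fell, the nucleoside carrier SLC29A1 (-0.45 ± 0.09, adjusted p = 0.0374; median of the list 0.09, and 0.34 without the covariate). SLC29A1 stood at 190.2, 359, 86.8 and 73.8 CPM with lenvatinib, against 206, 123, 84.0 and 146 CPM in DMSO, so the arms overlapped, and its log2 fold change without the covariate was 0.34, of the opposite sign. SLC47A1 (MATE1), an exporter of organic cations, was above DMSO in all 4 lenvatinib libraries, at 10.3, 10.6, 10.1 and 8.34 CPM, against 3.15, 7.87, 6.05 and 6.78 CPM in DMSO, and was not called (0.74 ± 0.31, edgeR adjusted p = 0.216). SLC22A3, SLCO4A1 and SLC29A2 were not called (-0.35, 0.08 and 0.04 with the covariate).

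Of 10 symbols listed for scaffold and trafficking partners, NHERF1 and SLC9A3R1 stand for the same gene. Of the symbols, 9 were in the table and 8 were tested, with 0 called and a median of -0.34, beside -0.37 without the covariate. Of these, EZR (ezrin), a linker between membrane proteins and actin, stood at 192, 58.6, 197 and 213 CPM with lenvatinib, against 274, 264, 260.0 and 291 CPM in DMSO, with every lenvatinib library below every DMSO library (-0.56 ± 0.28, adjusted p = 0.304). RDX (radixin), the linker that holds ABCC2 in the canalicular membrane, stood at 4.45, 0.966, 37.8 and 41.0 CPM with lenvatinib, against 11.3, 40.4, 85.1 and 24.3 CPM in DMSO (-0.37 ± 0.14, adjusted p = 0.188). MYO5B, a motor of apical membrane traffic, was below DMSO in all 4 lenvatinib libraries (9.81 ± 3.78 CPM, against 19.4 ± 1.75 CPM in DMSO, SD, n = 4 each), and was not called (-0.89 ± 0.28, adjusted p = 0.124). RAB11A, a small GTPase of recycling endosomes, was not called either (-0.60 ± 0.35).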

How the data were processed

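RNA of MHCC-97H cells was sequenced in 4 lenvatinib and 4 DMSO libraries. Per the submitters' processing notes, FastQC, HISAT2, bedtools and StringTie were used with GRCh38; their versions, strandedness and the annotation are not stated in the labels. The authors deposited 1 table with whole-number read counts, TPM and FPKM per gene, per the file headers. Deposited FPKM values are a constant multiple of the deposited TPM within each library.

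Counts of the 11827 genes whose mean over the 8 libraries reached 1 CPM were tested with edgeR 4.0.16 under R 4.3.3 (TMM, robust quasi-likelihood fit), with Benjamini-Hochberg adjustment over all of them and a threshold of 0.05. The GC slope used log2(CPM + 0.5) and, per gene, the GC content of its longest GENCODE v29 transcript, matched by Ensembl identifier. Positions are those of the deposited table. DESeq2 1.42.0 and limma 3.58.1 were alternatives.

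Named genes are the 7 transporters, called members of 5 further lists and up to 3 members with the largest absolute log2 fold change in either fit, and the 2 genes most correlated with each transporter, of which 1 is not reported here. Transporters, lists and tests were chosen with earlier results of these data known. The depth limits the precision of low genes, since 3 counts are between 0.0802 and 0.295 CPM of the library total, and intervals cover counting error only.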

Additional observations from a re-analysis of the deposited data

How the results depend on the processing

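Leaving out each library in turn, the fit without covariate called 0 transporters and 0 genes each time. With the covariate it called 0 to 3 transporters and 0 to 2770 genes, and the 60 µM comparison called 0 to 4 transporters and 0 to 6708 genes (4 and 4403 with all libraries). Counts of genes without the covariate were 0 in edgeR and 94 with DESeq2. They were 9 with offsets fitted as smooth curves of GC content and length, where 0 transporters were called. They were 475 with the covariate, where 1 transporter was called. With the covariate they were 2019 (2 transporters, ABCC3 and ABCC2) with DESeq2, 1057 with limma-voom, 928 with DESeq2 size factors, 316 with no filter, and 2494 (3 transporters) with only the 80 and 100 µM libraries. The cause was not tested. A GC slope computed with a pseudocount of 0.1 or 2 CPM, added after seeing the data, gave 427 or 512 genes and 1 transporter. The log2 fold change of ABCC3 was positive in each of these fits of the arms.

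With the number in the sample titles as a replicate block, the covariate fit called 0 transporters and 35 genes (ABCC3 0.58, adjusted p = 0.136). Same-numbered libraries had correlations of their deviations of 0.744, -0.495, 0.861 and -0.651. Libraries with different numbers reached like values, such as 0.862 for lenvatinib 4 with DMSO 3 and -0.86 for lenvatinib 4 with DMSO 1. Because the libraries share the GC axis, these correlations cannot decide whether the numbers pair the libraries.

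Among the transporters, changes of sign were found only for uncalled values. Without the covariate, ABCC5 and ABCC2 were -0.05 and -0.28 with the block, -0.18 and -0.49 in limma on log2(TPM + 1), -0.20 and -0.66 on log2(TPM + 0.1), and -0.11 to 0.38 and -0.27 to 0.49 with single libraries left out. ABCC4 was 0.05 with only the 80 and 100 µM libraries. With scaling by library totals the dose slope of ABCC3 was 0.10, ABCC5 was -0.42 at 40 µM, ABCC4 and ABCC1 were 0.10 and 0.18 at 80 µM, and ABCC1 was 0.14 at 100 µM. ABCC5 at 40 µM was also -0.07 with DESeq2 size factors and -0.01 with a filter at 5 CPM. With single libraries left out, ABCC4 and ABCC1 ran from -0.27 to 0.29 and -0.09 to 0.01 at 80 µM, and ABCC4 from -0.13 to 0.43 at 100 µM. By median in place of mean TPM, 12 of the 14 places in the 2 orders of level held. A dose cannot be tested without its own library, so those fits were not run.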

Other observations

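The blood gene HBB had reads at every lenvatinib dose, at 0.855, 4.19, 0.251 and 0.362 CPM at 40, 60, 80 and 100 µM, against 0, 0, 0 and 0.179 CPM in DMSO 1 to 4. The summed level of the 4 blood cell markers was 2.72 to 14.8 CPM with lenvatinib and 5.21 to 12.7 CPM in DMSO, 2 of them were at 0 in every library, and their part in the results was not tested. The urea cycle gene CPS1 accounted for nearly all of the hepatocyte marker sum, at 330, 53.1, 874 and 892 CPM with lenvatinib, against 412, 685, 991 and 538 CPM in DMSO. Its order of libraries resembles that of ABCC4, highest in DMSO 3 and lowest at 60 µM, as a description.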
